A study of Mus musculus with 18 samples.

Results

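Epididymal white adipose tissue (eWAT), the abdominal fat depot attached to the epididymis of male mice, was compared with liver in mice labelled as prone to a high-fat diet (HP). The comparison used the 3 eWAT HP libraries and the 3 liver HP libraries. Genes were kept where at least 3 of these 6 libraries held 1 FPKM or more. FPKM are fragments scaled by transcript length and by the library's mapped total, so levels of different genes can be set side by side per length. The rule kept 12779 of the 23474 gene identifiers in the table. Applied to the 6 libraries of another diet group, it kept 12198 on normal diet and 12483 in resistant mice. The series held 18 libraries, 3 for each of 2 tissues in 3 groups. The ND mice ate normal diet, and the high-fat diet was eaten by the HP (prone) and HR (resistant) mice. All animals were male C57BL/6J mice without a transgene in the labels, housed singly, divided at random at 5 weeks of age into groups of 10, fed for 12 weeks and taken at 17 weeks. The labels do not say how prone mice were told from resistant ones, whether a library is 1 mouse, or whether equal numbers in the 2 tissues are the same mouse. Every p-value below therefore measures the spread between these libraries, which may be partly technical.

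White adipocytes store triglyceride in a single large droplet coated by perilipins, take up fatty acids that lipoprotein lipase frees from blood lipoproteins, and release hormones such as leptin and adiponectin. Hepatocytes secrete most plasma proteins and lipoproteins, make glucose, bile acids and urea, and oxidize fatty acids to ketone bodies. Epididymal fat of obese mice is known for gathering macrophages that surround adipocytes and digest their lipid. Some steps that both organs carry out are run by different members of the same gene family, which sets the order of the results below.

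Promoter windows were read from RefSeq (build GRCm38.p6, 250 bases before to 50 bases after a start site). On the fat side, the promoter of the leptin gene held the motif TTGCNNAA, which C/EBP factors bind, 55 bases before its start site. The promoter of the perilipin 1 gene held 2 copies of it. Both strands were searched, and capitals mark the motif. These windows were picked because they held the motif, among the 15 genes with the largest difference toward eWAT. A promoter in the table was found for 12 of these. Of the 12, 6 held TTGCNNAA, as did 5 of 12 on the liver side. Mmp12, Retnla, Mest and Anxa1 were the others on the fat side and are not shown. The windows of Apoa2 and Fabp1, first by difference toward liver, stand beside them, with 1 of the copies in Apoa2.
Lep, chr6:29060146-29060193, plus strand: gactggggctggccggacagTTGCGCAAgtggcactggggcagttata
Plin1, chr7:79732936-79732983, minus strand: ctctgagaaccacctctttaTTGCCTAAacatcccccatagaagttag
Plin1, chr7:79732807-79732854, minus strand: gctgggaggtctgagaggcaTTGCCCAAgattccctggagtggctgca
Apoa2, chr1:171221404-171221451, plus strand: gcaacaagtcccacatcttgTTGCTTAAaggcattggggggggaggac
Fabp1, chr6:71199685-71199732, plus strand: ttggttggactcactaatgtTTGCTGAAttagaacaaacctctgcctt
Of all 32851 promoters in the table, 10.8% held TTGCNNAA, and of the 12754 promoters of genes tested, 8.84%. Other motifs were searched too and are not reported here. Among promoters of genes at least 8-fold higher in liver, 99 of 512 held it. Among those at least 8-fold higher in eWAT, the count was 118 of 1106. A promoter was found for 426 of 563 such genes in liver (4.41% of genes tested) and 833 of 1122 in eWAT (8.78%). Genes without a promoter were left out, and the shares were not tested against each other. A match of letters is not a binding site, and the windows are a description.

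The 6 libraries separated by tissue. Pearson's r of log2(FPKM + 1) across genes, which are not independent replicates, was 0.972 to 0.986 between eWAT libraries, 0.985 to 0.987 between liver libraries and 0.449 to 0.473 across tissues. Summed FPKM was 527904 to 552100 in eWAT and 814680 to 930139 in liver, and the 10 most abundant genes of a library held 13.3 to 15.8% of that sum in eWAT and 34.8 to 38.7% in liver. Genes at 1 FPKM or more numbered 12198 to 13421 in eWAT and 10193 to 10623 in liver. The table gives no read counts, so depth is not known directly. Adipocyte markers summed to 4.63 to 5% of all FPKM in eWAT and 0.324 to 0.455% in liver, and hepatocyte markers to 0.14 to 0.161% and 11.7 to 15.4%. Each tissue carried the markers of its label. Transcripts of testis and epididymis, organs next to this depot, held 0.37, 0.322 and 0.00605% of FPKM in eWAT HP 1, 2 and 3. In eWAT HP 1 they were of sperm-forming cells, with Tnp1, a sperm chromatin protein, at 604, 4.95 and 9.83 FPKM in the 3 libraries. In eWAT HP 2 they were mostly epididymal, with the sperm-binding protein Crisp1 at 0.149, 1172 and 0.531 FPKM. In liver the same list held at most 0.000113%. Skeletal muscle transcripts held 5.53e-05, 0.0152 and 0.00367% in liver HP 1, 2 and 3.

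A large majority of genes differed between the 2 organs. With limma on log2(FPKM + 1) and Benjamini-Hochberg adjustment over the 12779 genes, 10827 (84.7%) passed an adjusted p of 0.05. Of these, 8567 (67% of genes tested) were higher in eWAT and 2260 (17.7%) were higher in liver. The log2 difference, mean eWAT minus mean liver of log2(FPKM + 1), had a median of 0.949 over all genes and is positive where eWAT was higher. Requiring a difference of at least 3, or 8-fold on the log2(FPKM + 1) scale, left 1122 genes toward eWAT (8.78%) and 563 toward liver (4.41%). The 3 values of eWAT lay wholly above those of liver for 8658 genes (67.8%) and wholly below them for 2307 (18.1%). A gene under 1 FPKM in every library of a tissue passed the filter through the other tissue and had to lean that way. This held for 2095 genes at that level in liver and 498 in eWAT. Of the 10186 that reached 1 FPKM in both tissues, 6474 were higher in eWAT and 1763 in liver, with a median of 0.77.

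The balance between the tissues turned around in the far tail. At a difference of at least 5, 191 genes leaned to eWAT and 311 to liver. At 7 or more the counts were 28 and 130, and at 9 or more 3 and 43. Liver held fewer genes above eWAT but more with very large differences, as the plot of all genes shows. The share of genes that leaned to eWAT moved with the scale used for the libraries, also at a difference of at least 3. Quantile normalization gave 5205 genes higher in eWAT and 4497 in liver with a median of 0.10. Rescaling by the median ratio gave 5899 and 4102 with a median of 0.26, and rescaling to an equal sum gave 10125 and 1492 with a median of 1.48. At a difference of at least 3, quantile normalization gave 608 genes toward eWAT and 713 toward liver. The median ratio gave 681 and 740, and equal sums gave 1680 and 476. Differences are read against the median of 0.949, and each gene given below with values is marked where its direction turned under one of these 3 scales.

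**Figure D1:**
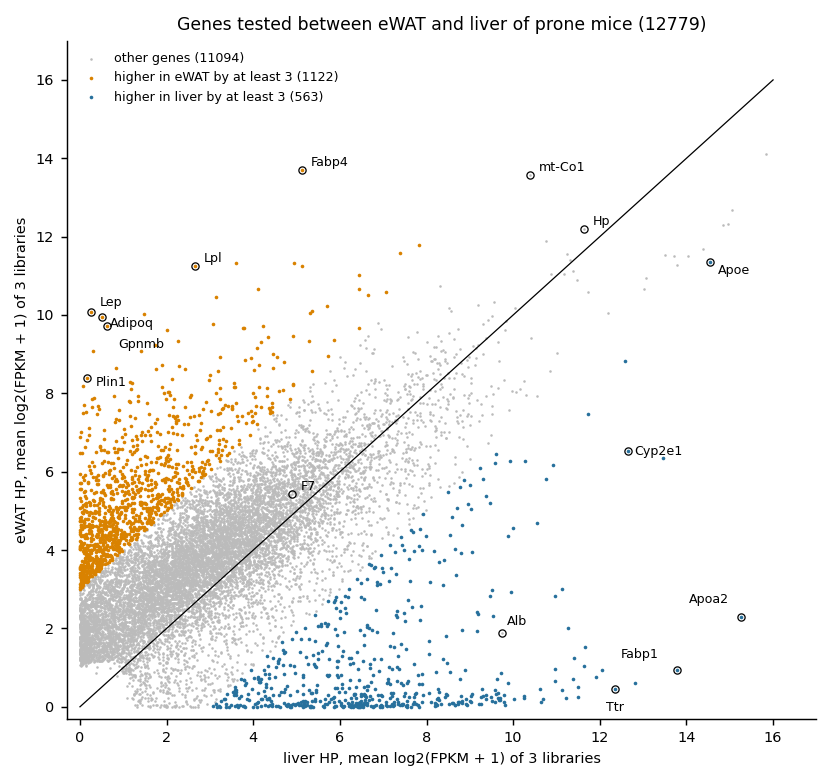
Each point is 1 of the 12779 genes tested, with mean log2(FPKM + 1) over 3 liver HP libraries on the horizontal axis and over 3 eWAT HP libraries on the vertical axis; the line marks equal levels. The 1122 genes at least 8-fold higher in eWAT lie above the line and the 563 at least 8-fold higher in liver below it, reaching furthest at Apoa2 and Fabp1; Alb and mt-Co1 are drawn with the 0 listed in liver HP 3.

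Adipocyte hormones and the proteins of fat storage headed the eWAT side. Leptin (Lep), the hormone that reports fat stores to the brain, read 899, 1196 and 1186 FPKM in eWAT and 0.723, 0 and 0 in liver, libraries 1 to 3 in order. The groups did not overlap, and the log2 difference was 9.82 ± 0.23 (SE, n = 3 and 3, adjusted p = 3.5e-09). Adiponectin (Adipoq), an insulin-sensitizing hormone, read 1027, 1037 and 908 FPKM in eWAT and 1.40, 0 and 0.174 in liver. It differed by 9.45 ± 0.29 (adjusted p = 1.6e-08), and liver HP 1 was the liver library with most of it. Resistin (Retn) read 268, 270.1 and 171 FPKM in eWAT and 0.479, 0.0901 and 0.0819 in liver, a difference of 7.59. In bulk tissue, fewer cells of a type and less RNA per cell cannot be told apart, here or in any result below.

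Fabp4, which carries fatty acids inside adipocytes and macrophages, was the most abundant nuclear gene of eWAT, at 14495, 13621 and 12038 FPKM in eWAT and 35.7, 30.2 and 36.7 in liver. All eWAT values stood above all liver values, and the difference was 8.57 ± 0.14 (adjusted p = 6.4e-10). Lipoprotein lipase (Lpl) read 2008, 2563 and 2866 FPKM in eWAT and 4.59, 5.57 and 5.84 in liver, a difference of 8.60. Perilipin 1 (Plin1), the coat of the adipocyte droplet, read 343, 314 and 341 FPKM in eWAT and 0.399, 0 and 0 in liver, a difference of 8.22. Cavin1, which shapes the surface pits called caveolae, read 579.6, 492 and 542 FPKM in eWAT and 1.798, 1.46 and 1.72 in liver. These genes were high in every eWAT library and low or listed at 0 in every liver library. Caveolin 1, the main protein of caveolae, was among 37 members of the gene lists that were listed at 0 in all 6 libraries. An exact 0 in every library can be a missing estimate, so it is not read as absence of the transcript.

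Macrophage and inflammation genes stood among the 15 with the largest difference toward eWAT. Gpnmb, a glycoprotein of lipid-laden macrophages, read 874, 699 and 958 FPKM in eWAT and 0.688, 0.372 and 0.600 in liver and differed by 9.08. Mmp12, the macrophage elastase, read 969.8, 828 and 1379 FPKM in eWAT and 1.27, 1.23 and 3.30 in liver, and was highest in eWAT HP 3. Retnla, a marker of alternatively activated macrophages, read 408, 320.2 and 189.5 FPKM in eWAT and 0.163, 0 and 0 in liver. Anxa1, an anti-inflammatory lipid-binding protein, read 795, 729 and 853 FPKM in eWAT and 2.25, 3.09 and 3.98 in liver. Such genes were named only where the groups lay apart. The remaining genes were Mest, an imprinted gene tied to fat expansion (403 against 0.801 FPKM, mean eWAT against mean liver), Sncg, a synuclein made by adipocytes (541 against 0.258), gelsolin (Gsn, 2585 against 11.3), which severs actin, and the amine oxidase Aoc3 (209 against 0.0708).

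**Figure D2:**
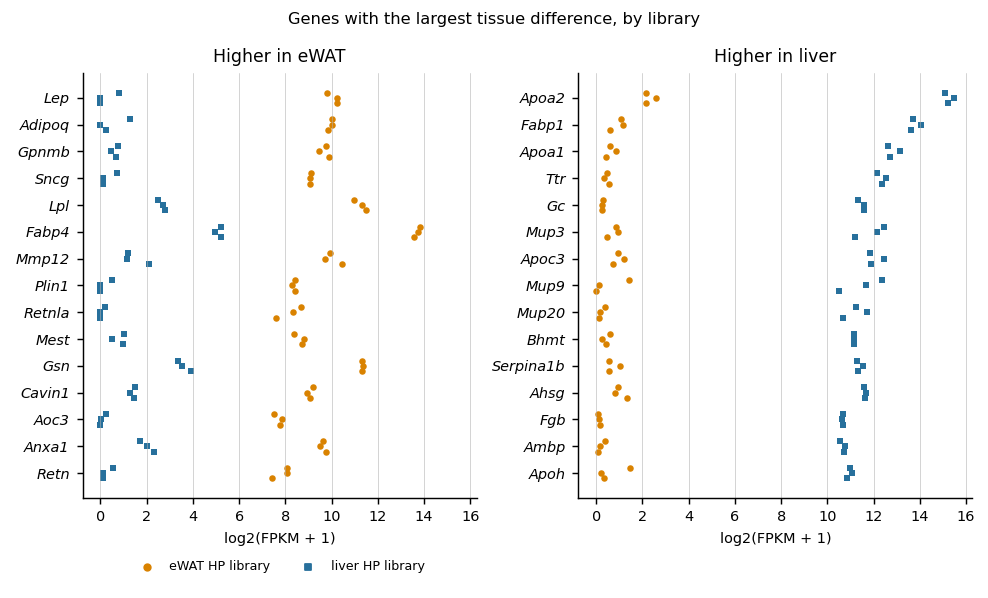
Values of log2(FPKM + 1) in each library for the 15 genes with the largest difference toward eWAT (left) and toward liver (right); circles are the 3 eWAT HP libraries and squares the 3 liver HP libraries. These genes were chosen among those whose groups lie apart, and the liver values of Lep, Adipoq and Plin1 are highest in liver HP 1.

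Across the whole adipocyte list, 26 of 30 tested members were higher in eWAT, 2 were higher in liver and 2 did not pass. The median difference was 4.98, beside 0.949 for all genes. All 26 were also called in each of the 6 fits that left out 1 library. Among the 17 that reached 1 FPKM in both tissues, 13 were higher in eWAT and 2 in liver. The glucose transporter of insulin-responsive cells, Slc2a4, stood at 24.8 ± 4.43 FPKM (SD, n = 3) in eWAT and 0.154 ± 0.0491 in liver. Hormone-sensitive lipase (Lipe, 379 against 8.24) and adipose triglyceride lipase (Pnpla2, 656 against 56.9), which release stored fatty acids, were both higher in eWAT. Cidec, which fuses droplets, read 1693, 1465 and 1698 FPKM in eWAT and 71.8, 76.7 and 115 in liver, so that liver held a clear level below that of eWAT. The members higher in liver were Cidea (2.41 against 9.74) and the glycerol 3-phosphate dehydrogenase Gpd1 (25.4 against 36.8, direction turned with equal sums). Gpd1 did not pass without eWAT HP 2 or 3 or liver HP 1 or 2 (adjusted p = 0.051 to 0.0756). Carbonic anhydrase 3 (Car3), an abundant adipocyte enzyme, read 3013, 2836 and 2347 FPKM in eWAT and 3005, 2333 and 2291 in liver. The groups overlapped and the difference of 0.11 ± 0.18 did not pass (adjusted p = 0.58). It was past the test toward eWAT under quantile normalization (adjusted p = 0.00105) or with equal sums (adjusted p = 0.0016). By the median ratio its direction turned, past the test toward liver (adjusted p = 0.00722).

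On the liver side the apolipoproteins stood first. Apoa2, a protein of high-density lipoprotein, read 3.42, 4.94 and 3.49 FPKM in eWAT and 34988, 46209.6 and 37667 in liver. Its groups lay far apart, with a difference of -12.97 ± 0.16 (adjusted p = 3.0e-10). Fabp1, the fatty acid carrier of hepatocytes, read 1.09, 1.21 and 0.531 FPKM in eWAT and 13424, 16868 and 12387 in liver, a difference of -12.84. Apoa1 read 0.495, 0.797 and 0.328 FPKM in eWAT and 6282, 9069 and 6645 in liver. Transthyretin (Ttr), the carrier of thyroxine and retinol-binding protein, read 0.401, 0.255 and 0.465 FPKM in eWAT and 4539, 5937 and 5188 in liver, and the vitamin D carrier Gc read 0.224, 0.173 and 0.193 FPKM in eWAT and 2595, 3036 and 3052 in liver. None of these 5 reached 5 FPKM in any eWAT library. The other genes of the first 15 were Apoc3, Apoh, the urinary pheromone carriers Mup3, Mup9 and Mup20, the methyltransferase Bhmt, the protease inhibitors Serpina1b and Ambp, fetuin A (Ahsg) and fibrinogen beta (Fgb).

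Hepatocyte markers were at 11.7 to 15.4% of FPKM in liver, and 26 of 28 were higher there, with a median of -9.04. A gene under 1 FPKM in every library of 1 tissue passed the filter through the other and had to lean to it. This held for 16 of these genes in eWAT, and 12 reached 1 FPKM in both tissues, where 0 were higher in eWAT and 10 in liver (median -9.55). No member was higher in eWAT. The 2 that did not pass were albumin, treated at the end, and glutamine synthetase (Glul). Glul makes glutamine and marks hepatocytes around the central vein, and read 643, 656 and 759.9 FPKM in eWAT and 885, 553 and 593 in liver. The groups overlapped, with a difference of 0.05 ± 0.19 (adjusted p = 0.82). It was past the test toward eWAT under quantile normalization (adjusted p = 0.025) or with equal sums (adjusted p = 0.00918). By the median ratio its direction turned, past the test toward liver (adjusted p = 0.00653). Glul made up most of what the hepatocyte list summed to in eWAT. Cyp2e1, an ethanol-oxidizing cytochrome, was the next member in eWAT at 106, 111 and 65.3 FPKM, beside 7481, 6038 and 5761 in liver.

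Secreted plasma proteins leaned to liver too, with 27 of 30 higher in liver, 2 higher in eWAT and a median of -7.24. In this list, 14 were under 1 FPKM in every eWAT library. Of the 16 that reached it in both tissues, 2 passed toward eWAT and 13 toward liver (median -4.45). The clotting cofactor protein S (Pros1) was higher in eWAT (65.3 against 25.4). Haptoglobin (Hp), which binds free haemoglobin, was the other. It read 4841, 4824 and 4480.0 FPKM in eWAT and 2488, 3987 and 3294 in liver, so the lowest eWAT value stood above the highest liver value. Its difference of 0.56 ± 0.20 (adjusted p = 0.027) was below the median of all genes and turned to -0.28 under the median ratio. It did not pass without eWAT HP 1, 2 or 3 or without liver HP 1 (adjusted p = 0.0615 to 0.084). Transferrin (Trf, 1059 against 4644), retinol-binding protein (Rbp4, 176 against 3407) and orosomucoid 1 (Orm1, 176 against 626) were higher in liver, and eWAT held a clear level of each. Most other members lay below 10 FPKM in eWAT, among them hemopexin (Hpx, 7.38 against 2272).

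Lipoprotein genes were mostly higher in liver. Of 28 tested, 20 were higher in liver and 7 in eWAT, with a median of -5.34. In this list, 9 were under 1 FPKM in every eWAT library. Of the 19 that reached it in both tissues, 7 passed toward eWAT and 11 toward liver (median -3.18). The liver genes included Apob, the backbone of very-low-density lipoprotein (0.0800 against 886), Mttp, which loads it with lipid (1.68 against 66.8), and hepatic lipase (Lipc, 0.239 against 80.0). Those higher in eWAT included Lpl, its endothelial anchor Gpihbp1 (73.9 against 11.3), its inhibitor Angptl4 (380.2 against 97.1) and the phospholipid transfer protein Pltp (566 against 111). The liver-made inhibitor Angptl8 (2.18 against 45.5) was higher in liver. Apolipoprotein E (Apoe), made by hepatocytes and macrophages, read 3009, 2452 and 2415 FPKM in eWAT and 23135, 25755 and 22470.2 in liver. Liver stood above eWAT in every library, a difference of -3.18, while Apoe was still among the more abundant genes of eWAT.

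Clotting genes held members far toward each tissue. Of 29 tested, 19 were higher in liver, including the fibrinogen chains Fgb (0.0881 against 1602), Fgg (0.166 against 1229.6) and Fga (0.231 against 634), prothrombin (F2, 0.0896 against 771) and plasminogen (Plg, 0.0369 against 491). In this list, 17 were under 1 FPKM in every eWAT library. Of the 9 that reached it in both tissues, 6 passed toward eWAT and 2 toward liver (median 1.34). The 9 higher in eWAT included urokinase (Plau, 135 against 1.04), factor XIII A (F13a1, 33.8 against 0.0998), thrombomodulin (Thbd, 23.8 against 0.660) and tissue factor (F3, 28.7 against 2.60). Factor VII (F7), a liver-made protease that tissue factor activates, read 61.0, 32.0 and 38.9 FPKM in eWAT and 32.7, 30.6 and 24.2 in liver. Its groups overlapped and the difference of 0.53 ± 0.23 did not pass (adjusted p = 0.055, direction turned by the median ratio, but past the test toward eWAT with equal sums, adjusted p = 0.000626, and adjusted p = 0.0161 without eWAT HP 2).

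Complement genes had no common direction. Of 30 tested, 10 were higher in eWAT and 17 in liver, with a median of -0.86. In this list, 8 were under 1 FPKM in every eWAT library. Of the 19 that reached it in both tissues, 7 passed toward eWAT and 9 toward liver (median -0.36). Receptors and the C1q chains were higher in eWAT, with C3ar1 at 96.8 against 0.716, C5ar1 at 64.4 against 0.594 and C1qb at 452 against 26.0. The lectin pathway proteins Mbl1, Mbl2, Masp1 and Masp2 were higher in liver, with Mbl2 at 0.0558 against 319, as were the membrane attack proteins C8a (0.00481 against 85.0) and C9 (0.220 against 95.1). C7, from the same attack complex, was higher in eWAT (31.4 against 0.121). C3, the central component, read 445, 467 and 442 FPKM in eWAT and 844, 761 and 830.0 in liver. It was higher in liver by a difference of -0.84, but not past the test with equal sums, adjusted p = 0.203. Factor B (Cfb) was also higher in liver (193 against 354, but not past the test with equal sums, adjusted p = 0.122). Adipsin (Cfd), the adipocyte protease that activates factor B, read 337, 349 and 251 FPKM in eWAT and 193, 162 and 54.7 in liver, with liver HP 3 lowest. It was higher in eWAT, but not past the test by the median ratio, adjusted p = 0.283.

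Genes of nitrogen metabolism were higher in liver. In the list of urea cycle and amino acid breakdown, 35 of 36 were higher in liver, none in eWAT, with a median of -5.80. In this list, 18 were under 1 FPKM in every eWAT library. Of the 18 that reached it in both tissues, 0 passed toward eWAT and 17 toward liver (median -3.13). Cps1, the entry enzyme of the urea cycle, read 0.0380, 0.0341 and 0.0229 FPKM in eWAT and 156, 102 and 152 in liver. Ornithine transcarbamylase (Otc) stood at 0.0436 against 298, and arginase 1 (Arg1) at 4.39 against 585. Tryptophan dioxygenase (Tdo2, 0.238 against 678) was low in every eWAT library. Breakdown of branched-chain amino acids, a known activity of adipocytes, did not lean so far: 6 of 25 were higher in eWAT, 13 in liver and 6 did not pass, with a median of -0.49 that became 0.15 with equal sums. Its first enzyme, the transaminase Bcat2, read 51.0, 40.5 and 43.7 FPKM in eWAT and 23.2, 26.8 and 24.4 in liver, higher in eWAT, but not past the test by the median ratio, adjusted p = 0.896. Bcat1 averaged 9.68 FPKM in eWAT and was listed at 0 in all 3 liver libraries. The kinase that blocks the next step, Bckdk (53.4 against 8.70), was higher in eWAT, and the phosphatase that frees it, Ppm1k (2.38 against 22.8), in liver.

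Detoxification and bile acid genes were higher in liver, and many of them were under 1 FPKM in every eWAT library. Of 34 P450 and conjugating enzymes, 32 were higher in liver and none in eWAT (median -6.78). In this list, 22 were under 1 FPKM in every eWAT library. Of the 12 that reached it in both tissues, 0 passed toward eWAT and 10 toward liver (median -2.35). Cyp3a11, a drug-oxidizing cytochrome, read 0, 0.0721 and 0 FPKM in eWAT and 759.8, 880.2 and 1097 in liver. Of 23 bile acid genes, 22 were higher in liver (median -5.09), including the rate-limiting enzyme Cyp7a1 (0.00962 against 83.8), Cyp8b1 (0.251 against 531) and the uptake carrier Slc10a1 (0.0661 against 389). In this list, 16 were under 1 FPKM in every eWAT library. Of the 7 that reached it in both tissues, 1 passed toward eWAT and 6 toward liver (median -2.92). The exception was Klb, the coreceptor of FGF21 and FGF15, at 6.97 against 3.79 (not past the test by the median ratio, adjusted p = 0.815). By quantile normalization its direction turned, past the test toward liver (adjusted p = 0.0415). All 16 tested major urinary proteins were higher in liver (median -6.95), and 13 of them were under 1 FPKM in every eWAT library. They are near-identical copies whose reads are hard to assign, and their sum was 2.82, 1.76 and 0.954% of FPKM in liver HP 1, 2 and 3, highest in liver HP 1.

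**Figure D3:**
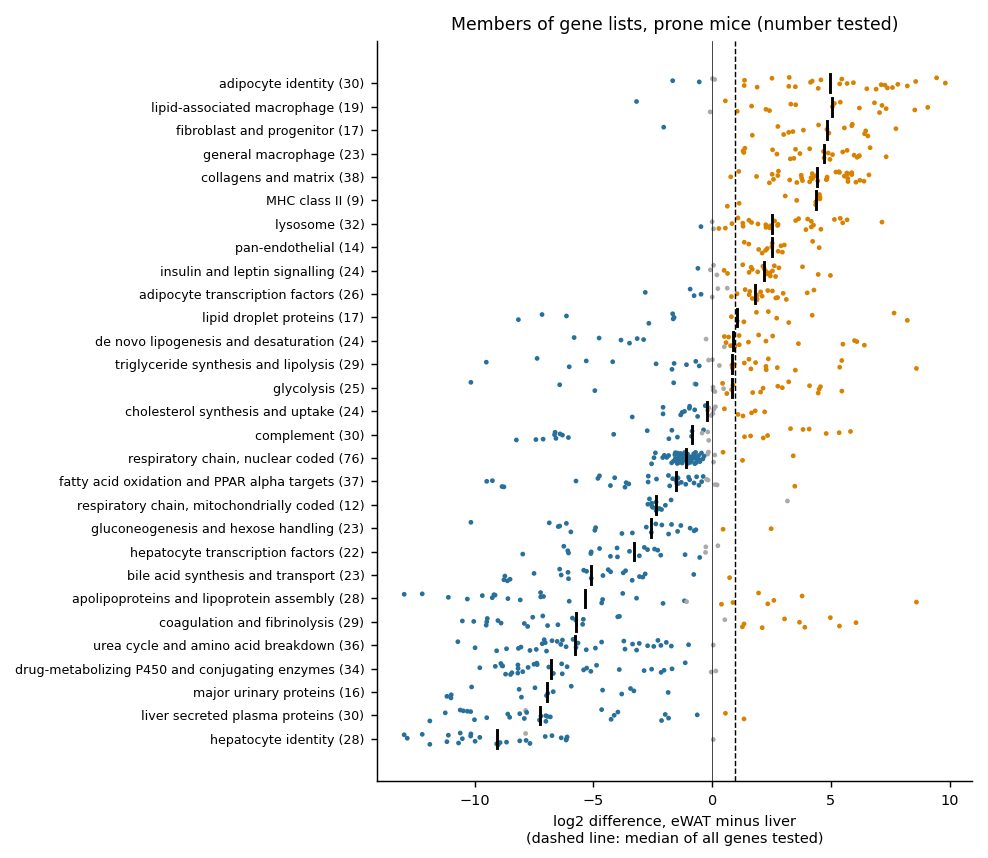
Each point is the log2 difference (eWAT minus liver) of 1 tested member of a gene list in prone mice, coloured by direction where it passed the test and grey where it did not; black bars are list medians and the dashed line is the median of all genes, 0.949. The list medians run from 5.07 for lipid-associated macrophage genes to -9.04 for hepatocyte markers.

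In lipid metabolism, oxidation genes leaned to liver, while the share of synthesis genes higher in eWAT was near the 67% of all genes. Of 24 synthesis genes, 16 were higher in eWAT and 6 in liver, with a median of 0.87 that was below the 0.949 of all genes. Fatty acid synthase (Fasn) read 393, 319 and 326 FPKM in eWAT and 49.6, 72.4 and 98.5 in liver. ATP citrate lyase (Acly, 91.9 against 14.97), the pentose phosphate enzyme G6pdx (165 against 1.45) and Pnpla3 (51.5 against 0.147) were also higher in eWAT. The 6 higher in liver were the polyunsaturated fatty acid enzymes Fads1 (27.0 against 207), Fads2 (13.8 against 198), Elovl2 (3.10 against 171) and Elovl5 (47.8 against 440.2), Elovl3 (1.29 against 67.8) and the sugar-sensing factor Mlxipl (15.1 against 178). The tested stearoyl-CoA desaturases, which make monounsaturated fat, were higher in eWAT, with Scd2 at 159 against 0.880. Scd1 read 3389, 4571 and 3545 FPKM in eWAT and 2099.5, 1238 and 1958 in liver, and its groups did not overlap. It was higher in eWAT, but not past the test by the median ratio, adjusted p = 0.255.

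Among genes of triglyceride synthesis and lipolysis, 15 of 29 were higher in eWAT and 11 in liver, with a median of 0.83 (-0.08 under quantile normalization), beside 67% and 17.7% of all genes. The triglyceride-forming enzymes Dgat2 (529.8 against 207) and Dgat1 (91.1 against 24.9) were higher in eWAT. Liver held the carboxylesterase Ces3a (0.128 against 825) and arylacetamide deacetylase (Aadac, 1.17 against 356), lipases of hepatocytes. G0s2, an inhibitor of adipose triglyceride lipase, read 186, 163 and 161 FPKM in eWAT and 549, 625 and 402 in liver and was higher in liver. Glycerol kinase (Gk), which lets liver reuse glycerol, was higher in liver (11.3 against 61.1).

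Fatty acid oxidation leaned to liver in 32 of 37 members, with a median of -1.52. With equal sums 26 were called toward liver and 5 toward eWAT. Under 1 FPKM in every eWAT library were 5 members, which had to lean to liver. The 32 that reached it in both tissues gave 1 call toward eWAT and 27 toward liver (median -1.46). The microsomal oxidases Cyp4a14 (0.246 against 901) and Cyp4a10 (0.189 against 724), both among those under 1 FPKM in eWAT, differed most. Carnitine palmitoyltransferase 1a (Cpt1a), the gate of mitochondrial oxidation, read 62.7, 69.3 and 75.4 FPKM in eWAT and 134, 121 and 148 in liver, a smaller difference of -0.95, but not past the test with equal sums, adjusted p = 0.103. The fatty acid importer Slc27a1 (202 against 17.1) was the member higher in eWAT. Ketone body genes were split by step: Bdh1 (0.228 against 241), which makes beta-hydroxybutyrate, was higher in liver. Oxct1, the enzyme needed to burn them, read 150.1, 187 and 178 FPKM in eWAT and 1.62, 1.11 and 1.02 in liver. It was higher in every eWAT library, a difference of 6.27 ± 0.14 (adjusted p = 3.5e-09). Cholesterol synthesis gave 6 higher in eWAT, 11 in liver and 7 that did not pass, with a median of -0.22 that became 0.42 with equal sums.

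In sugar metabolism, the genes of glucose output stood in liver. Of 23 genes of gluconeogenesis and hexose handling, 21 were higher in liver (median -2.56). In this list, 5 were under 1 FPKM in every eWAT library. Of the 18 that reached it in both tissues, 2 passed toward eWAT and 16 toward liver (median -2.25). Glucose 6-phosphatase (G6pc), which releases free glucose, read 0.0755, 0.0910 and 0 FPKM in eWAT and 82.5, 53.3 and 89.4 in liver. Ketohexokinase (Khk, 8.14 against 272) and fructose bisphosphatase (Fbp1) were also higher in liver. Fbp1 read 18.6, 1.14 and 0.387 FPKM in eWAT and 515, 383 and 458 in liver, with eWAT HP 1 far above the other 2 eWAT libraries. Of 25 glycolysis genes, 15 were higher in eWAT and 5 in liver, beside 67% and 17.7% of all genes tested. Their median was 0.82 (-0.006 under the median ratio). Lactate dehydrogenase A (Ldha) read 679.9, 529 and 608 FPKM in eWAT and 718, 521 and 538 in liver. The groups overlapped, and the difference of 0.04 ± 0.16 did not pass (adjusted p = 0.83). It was past the test toward eWAT under quantile normalization (adjusted p = 0.0135) or with equal sums (adjusted p = 0.00372). By the median ratio its direction turned, past the test toward liver (adjusted p = 0.00267).

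Some gene families held members higher in eWAT and members higher in liver. In others, such as the diacylglycerol acyltransferases and stearoyl-CoA desaturases above, each tested member was higher in eWAT. Glucose enters hepatocytes through Slc2a2 (0.756 against 108) and insulin-responsive fat cells through Slc2a4. Of the other transporters of the family, Slc2a1 (6.90 against 1.41) and Slc2a3 (16.4 against 0.229, but not past the test under quantile normalization, adjusted p = 0.0594) were higher in eWAT, Slc2a9 (4.06 against 14.7) in liver and Slc2a8 (9.88 against 5.13, direction turned by quantile normalization, but not past the test by the median ratio, adjusted p = 0.686) in eWAT, and Slc2a5 did not pass (6.58 against 2.20, adjusted p = 0.74, direction turned by quantile normalization and by the median ratio). The high-affinity hexokinases, which phosphorylate glucose, were higher in eWAT, with Hk1 at 56.2, 18.1 and 19.2 FPKM in eWAT and 0.691, 0.666 and 0.546 in liver, Hk2 at 13.3 against 1.16 and Hk3 at 50.7 against 1.17. The groups of these 3 lay apart. Hk1 and the sum of the transporters (109.5, 54.69 and 44.01 FPKM in eWAT HP 1, 2 and 3) were highest in eWAT HP 1. That library carried transcripts of sperm-forming cells, and their part in these values was not tested. Pyruvate kinase was Pkm in eWAT (355 against 7.13) and Pklr in liver (0.885 against 54.7). Glycogen synthase was Gys1 in eWAT (15.8 against 1.44) beside Gys2, which was higher in liver (11.5 against 84.2) yet near the level of Gys1 in eWAT.

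The fatty acid carriers were Fabp1 in liver and Fabp4 in eWAT, and Fabp5 (569 against 16.1) and Fabp3 (2.57 against 0.844) were also higher in eWAT. Fabp3 was not past the test under quantile normalization (adjusted p = 0.74) or by the median ratio (adjusted p = 0.203). Nor did Fabp3 pass without eWAT HP 1 or 3 or liver HP 1 or 3 (adjusted p = 0.067 to 0.11). Fabp7 did not pass (5.06 against 3.54, adjusted p = 0.069, or 0.0285 without eWAT HP 2). It was past the test toward eWAT with equal sums (adjusted p = 0.00115). Its direction turned by the median ratio, and by quantile normalization, where it was past the test toward liver (adjusted p = 0.0046). Methionine enzymes differed in the same manner. The liver methionine adenosyltransferase Mat1a read 0.106, 0.447 and 0.0858 FPKM in eWAT and 1263, 1176 and 1212 in liver. Mat2a (96.1 against 35.7) and its regulatory partner Mat2b (43.3 against 23.9, but not past the test by the median ratio, adjusted p = 0.865) were higher in eWAT. The nuclear receptors for fatty acids were Ppara in liver, at 1.39, 1.95 and 0.758 FPKM in eWAT and 40.8, 39.1 and 53.6 in liver, and Pparg, the master factor of adipocytes, in eWAT, at 63.3, 62.7 and 51.8 FPKM in eWAT and 13.3, 15.3 and 17.1 in liver. Pparg was present in every liver library, and differed by 1.90. Ppard was higher in eWAT (12.3 against 2.26).

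Droplet coats and their enlargers also parted. Of the perilipins, Plin1, Plin4 (382 against 41.4), Plin3 (52.4 against 20.1) and Plin2 (1224 against 586, but not past the test by the median ratio, adjusted p = 0.229) were higher in eWAT, and Plin5, the perilipin of oxidizing tissues, was higher in liver (6.63, 6.00 and 6.10 FPKM in eWAT and 50.3, 37.8 and 47.6 in liver). Of the CIDE proteins, Cidec was higher in eWAT, and Cidea and Cideb (1.36 against 335) in liver, where Cideb serves lipoprotein loading. Hsd17b13, a droplet enzyme of hepatocytes, read 0, 0.0497 and 0.0669 FPKM in eWAT and 233, 299.9 and 371 in liver. Of the 6 fatty acid transport proteins, Slc27a2 (0.923 against 840.4) and Slc27a5 (0.202 against 531) were higher in liver. Slc27a1, Slc27a3 (3.53 against 0.421), Slc27a6 (1.44 against 0.0709) and Slc27a4 (12.97 against 9.48, adjusted p = 0.0539 without eWAT HP 3) were higher in eWAT. The direction of Slc27a4 turned, past the test toward liver, by quantile normalization (adjusted p = 0.00996) and the median ratio (adjusted p = 0.0432). Glycerol leaves adipocytes through Aqp7 and enters hepatocytes through Aqp9: Aqp7 read 79.1, 70.3 and 73.5 FPKM in eWAT and 0.470, 0.789 and 0.895 in liver, and Aqp9 8.03, 8.13 and 1.54 FPKM in eWAT and 271, 206 and 227 in liver. Aqp11 did not pass (9.88 against 16.7, adjusted p = 0.089, or 5.68e-05 without eWAT HP 1, but past the test toward liver under quantile normalization, adjusted p = 0.0137 or by the median ratio, adjusted p = 0.01).

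**Figure D4:**
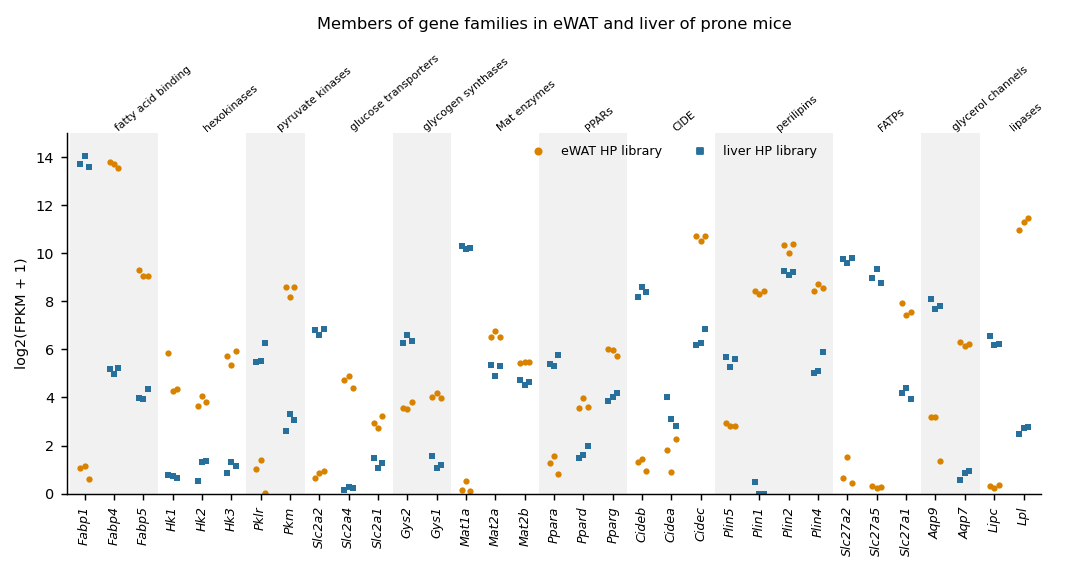
Values of log2(FPKM + 1) in each library for members of 12 gene families; circles are the 3 eWAT HP libraries and squares the 3 liver HP libraries, shown from library 1 to 3. The circles lie above the squares for Hk1, Hk2, Hk3 and Pkm, and the squares above the circles for Pklr.

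Carbonic anhydrases spread over both organs. Car4, bound to the outer membrane, read 36.7, 41.2 and 23.8 FPKM in eWAT and 0.0501, 0.0576 and 0 in liver, and mitochondrial Car5b 43.6, 47.3 and 43.6 FPKM in eWAT and 1.06, 0.812 and 0.998 in liver. Both were low or near 0 in every liver library. Car14 (0.751 against 34.4), Car8 (0.278 against 16.5) and Car1 (0.359 against 5.06) were higher in liver, and Car2 did not pass (4.88 against 7.10, adjusted p = 0.16, but past the test toward liver under quantile normalization, adjusted p = 0.00227 or by the median ratio, adjusted p = 0.00605). Of the pyruvate dehydrogenase kinases, which hold back glucose oxidation, Pdk4 (116 against 6.77) and Pdk3 (6.41 against 0.133) were higher in eWAT and Pdk2 (30.4 against 49.1, but not past the test with equal sums, adjusted p = 0.781) and Pdk1 (19.3 against 24.2, direction turned with equal sums) in liver. Pdk1 passed without liver HP 2 but in no other fit that left out 1 library (adjusted p = 0.0531 to 0.145). The gluconeogenic phosphoenolpyruvate carboxykinase Pck1, which adipocytes use to make glycerol phosphate, read 266, 246 and 227 FPKM in eWAT and 482, 362 and 588 in liver. Pck1 was higher in liver, but not past the test with equal sums, adjusted p = 0.247. Its mitochondrial relative Pck2 was higher in eWAT (12.5 against 1.42).

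Transcripts of the respiratory chain were higher in liver from both genomes. Of 76 nuclear genes, 69 were higher in liver and 3 in eWAT. The median was -1.09, and 47 were called toward liver with equal sums. The 3 higher in eWAT were Cox8b (19.3 against 0.869), a cytochrome oxidase subunit of heart and brown fat, Ndufs1 (33.2 against 13.7, but not past the test under quantile normalization, adjusted p = 0.0584 or by the median ratio, adjusted p = 0.117) and Atp5b (945 against 694, direction turned by the median ratio). Atp5b did not pass without eWAT HP 2 or 3 or liver HP 1 or 3 (adjusted p = 0.0887 to 0.141). Of 12 genes on the mitochondrial chromosome, 11 were higher in liver, with a median of -2.36. Together these held 11.1 to 13.9% of FPKM in eWAT and 30.4 to 35.3% in liver. Cytochrome b (mt-Cytb) read 3064, 3563 and 3194 FPKM in eWAT and 17256, 22906 and 24572 in liver. All eWAT values lay below all liver values, a difference of -2.71 ± 0.20 (adjusted p = 2.9e-06, but not past the test under quantile normalization, adjusted p = 0.115). Quantile normalization, which gives the most abundant genes of all libraries equal values, left a median of -0.24 and 3 calls.

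Transcription factors known from hepatocytes were mostly higher in liver. Of 22 hepatocyte factors, 19 were higher in liver (median -3.27). In this list, 12 were under 1 FPKM in every eWAT library. Of the 10 that reached it in both tissues, 0 passed toward eWAT and 7 toward liver (median -1.72). Hnf4a, a nuclear receptor of hepatocyte genes, read 1.10, 0.443 and 0.0143 FPKM in eWAT and 98.5, 94.5 and 98.9 in liver. Foxa2, listed at 0 in all eWAT libraries, averaged 15.2 FPKM in liver. Nr1i3, a sensor of foreign compounds, differed most, at 0.0959 against 275. Cebpa, a factor of both cell types, read 175, 138 and 172 FPKM in eWAT and 141, 137 and 129.7 in liver. Its difference of 0.24 ± 0.12 did not pass (adjusted p = 0.098, or 0.0286 without eWAT HP 2). It was past the test toward eWAT under quantile normalization (adjusted p = 0.0112) or with equal sums (adjusted p = 0.000114). By the median ratio its direction turned, past the test toward liver (adjusted p = 0.00387).

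Of 26 factors known from adipocytes and their precursors, 19 were higher in eWAT and 4 in liver (median 1.79). In this list, 15 were under 1 FPKM in every liver library. Of the 10 that reached it in both tissues, 4 passed toward eWAT and 3 toward liver (median 0.44). That median lay below the 0.77 of all genes at that level in both tissues. Ebf1, a factor of adipocyte and B cell formation, read 15.4, 22.4 and 21.0 FPKM in eWAT and 0.0409, 0.0349 and 0.0512 in liver. Klf4 (23.6 against 0.533) and Zfp423 (15.1 against 0.838) were also higher in eWAT, and Klf15 in liver (8.35 against 64.7). HOX genes keep a record of position along the body, and 11 of the 38 looked for passed the filter. Several of the rest, such as Hoxa5, were listed at 0 in every library, which can be a missing estimate. All 11 stayed under 1 FPKM in every liver library, so they passed through eWAT and their direction follows from that. Hoxc8 averaged 15.9 ± 1.63 FPKM (SD, n = 3) in eWAT and was listed at 0 in all liver libraries, as were Hoxc6 (6.27 in eWAT) and Hoxd3 (6.29).

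Insulin and leptin signalling genes leaned to eWAT, 20 of 24 with 1 higher in liver, beside 67% and 17.7% of all genes tested. Their median was 2.17, or 1.42 under the median ratio. Under 1 FPKM in every liver library were 4 of them. The 20 that reached it in both tissues gave 16 calls toward eWAT and 1 toward liver (median 2.17). The insulin receptor substrate Irs2 read 10.6, 11.9 and 12.1 FPKM in eWAT and 1.32, 0.762 and 1.44 in liver. The insulin-activated kinase Akt2 (118 against 26.1) and Pde3b, which lowers cyclic AMP under insulin (54.7 against 10.7), were higher in eWAT. The receptor itself (Insr) read 11.5, 15.8 and 12.6 FPKM in eWAT and 14.3, 12.2 and 15.4 in liver and did not pass (adjusted p = 0.65). It was past the test toward liver under quantile normalization (adjusted p = 0.000575) or by the median ratio (adjusted p = 0.00052). With equal sums its direction turned, past the test toward eWAT (adjusted p = 0.0165). Grb14, an inhibitor of the receptor, was the member higher in liver (23.2 against 35.6, direction turned with equal sums). Of 19 beta adrenergic and thermogenic genes, 13 were higher in eWAT, near the share of all genes, and 5 in liver (median 1.09). Adrb3, the fat-cell receptor for noradrenaline, read 92.0, 56.9 and 41.4 FPKM in eWAT and 9.02, 10.1 and 9.89 in liver, and Prkar2b, a regulatory subunit of protein kinase A, 218, 256 and 232 FPKM in eWAT and 0.473, 0.157 and 0.159 in liver.

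Macrophage transcripts were abundant in eWAT. The 23 tested macrophage markers were higher there, with a median of 4.71. So were the 20 of them that reached 1 FPKM in both tissues, and their sum was 1.47, 1.17 and 1.6% of FPKM in eWAT HP 1, 2 and 3 against 0.0132 to 0.0214% in liver. Adgre1, the F4/80 antigen, read 213, 195 and 259 FPKM in eWAT and 1.58, 0.876 and 1.21 in liver. Every eWAT value stood far above every liver value (difference 6.65 ± 0.16, adjusted p = 4.2e-09). Lysozyme (Lyz2) read 2684, 1914 and 2757 FPKM in eWAT and 25.8, 40.1 and 38.3 in liver, and galectin 3 (Lgals3) 1529, 1117 and 1627 FPKM in eWAT and 3.83, 10.3 and 11.3 in liver. For all 3 genes the lowest eWAT value was in eWAT HP 2.

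Of 19 genes of lipid-associated macrophages, 17 were higher in eWAT (median 5.07). Under 1 FPKM in every liver library were 3 of them. The 16 that reached it in both tissues gave 14 calls toward eWAT and 1 toward liver (median 3.42). Trem2, a lipid receptor of these cells, read 338, 232 and 365 FPKM in eWAT and 0.592, 2.19 and 1.44 in liver, and Itgax, an integrin of macrophages in obese fat, 102, 77.8 and 127 FPKM in eWAT and 0.185, 0.403 and 0.565 in liver. The member higher in liver was Apoe. Osteopontin (Spp1) read 66.3, 49.7 and 99.8 FPKM in eWAT and 48.9, 73.1 and 109 in liver. The groups overlapped and the difference of -0.08 ± 0.32 did not pass (adjusted p = 0.82, direction turned with equal sums, but past the test toward liver by the median ratio, adjusted p = 0.0269). Kupffer cells, the resident macrophages of liver, had 7 of 14 markers higher in liver and 5 higher in eWAT (median -0.60). In this list, 3 were under 1 FPKM in every eWAT library. Of the 11 that reached it in both tissues, 5 passed toward eWAT and 4 toward liver (median -0.17). Clec4f, the lectin that defines them, read 0, 0 and 0.0248 FPKM in eWAT and 30.5, 41.8 and 36.1 in liver, and Cd5l 1.68, 1.12 and 2.02 FPKM in eWAT and 24.8, 26.4 and 24.2 in liver. Both were high in liver only, while Folr2 (123 against 5.50), which fat macrophages share, was higher in eWAT.

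Lysosomal genes were higher in eWAT beside the macrophage markers: 29 of 32 were higher in eWAT and 1 in liver (median 2.54), summing to 3.14, 2.7 and 3.52% in eWAT and 0.261 to 0.313% in liver. Prosaposin (Psap) read 3789.8, 2930.4 and 3969.6 FPKM in eWAT and 244, 207 and 234 in liver and cathepsin D (Ctsd) 3201, 2561 and 3453 FPKM in eWAT and 163, 167 and 174 in liver. In both the lowest eWAT value was in eWAT HP 2, the library with the lowest macrophage sum. What part macrophages have in the lysosomal difference was not tested. Class II antigen-presenting genes were higher in eWAT in 9 of 9 cases (median 4.36, 6 of them at 1 FPKM or more in both tissues), with Cd74 at 1406, 1041 and 1159 FPKM in eWAT and 32.6, 61.9 and 65.7 in liver. Of 24 chemokines and cytokines, 18 were higher in eWAT (13 under quantile normalization), not far from the 67% of all genes tested. Ccl6 (288 against 2.72) and the eosinophil attractant Ccl11 (44.5 against 0.0875) led them. In this list, 9 were under 1 FPKM in every liver library. Of the 14 that reached it in both tissues, 9 passed toward eWAT and 4 toward liver (median 1.96). The 5 higher in liver were Cxcl1 (2.15 against 12.3), Cxcl10 (2.45 against 10.5), Il18 (3.12 against 9.73), Il1a (0.256 against 1.39) and Cxcl12 (72.7 against 103, direction turned with equal sums).

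Matrix and vessel genes were also eWAT genes. The 38 tested collagens and matrix proteins were higher there (median 4.41), 32 of them at 1 FPKM or more in both tissues, at 1.44 to 1.57% of FPKM against 0.037 to 0.0554%. Collagen III (Col3a1) read 895, 715 and 818 FPKM in eWAT and 7.15, 14.3 and 19.6 in liver, and the matrix glycoprotein Sparc 2456, 2486 and 2761 FPKM in eWAT and 23.8, 29.8 and 36.0 in liver. The adipocyte collagen Col6a2 stood at 246 against 1.58 and Col6a1 at 248 against 3.38. Of 17 fibroblast and progenitor markers, 16 were higher in eWAT (10 of 11 that reached 1 FPKM in both tissues), among them Pdgfra (19.5 against 0.950), the receptor that marks adipocyte precursors. Dpp4, which marks a precursor subset and also hepatocyte membranes, was higher in liver (4.01 against 19.4). All 14 endothelial markers were higher in eWAT, with Pecam1 at 74.9, 81.0 and 71.2 FPKM in eWAT and 2.75, 2.02 and 2.37 in liver. Markers of liver sinusoidal endothelium gave 6 toward eWAT, 2 toward liver and 4 not past the test (median 0.68, or -0.33 under quantile normalization). Among them Dnase1l3 (0.0882 against 4.50) and Gata4 (0.238 against 5.50) were the members higher in liver.

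Genes used as loading references were not level between these organs. Of 20 cell maintenance genes, 12 were higher in eWAT and 3 in liver, beside 67% and 17.7% of all genes tested. Their median was 0.71 (-0.09 under the median ratio), beside 0.949 for all genes, so the list did not stand out from the rest. Beta actin (Actb) read 1682, 1367 and 2188 FPKM in eWAT and 311, 295 and 351 in liver, a difference of 2.43, and Gapdh 62.6, 114 and 97.2 FPKM in eWAT and 129, 152 and 147 in liver, a difference of -0.68. The groups of each lay apart, though Gapdh did not pass with equal sums (difference -0.018, adjusted p = 0.939). Clock genes, which differ with the hour of sampling, were called toward eWAT in 7 of 19 and toward liver in 10, beside the same 67% and 17.7%. Their median of -0.58 became 0.05 with equal sums, where 9 were called toward eWAT and 7 toward liver. Arntl, an activator of the clock, was higher in eWAT (8.91 against 1.18) and its output gene Dbp higher in liver (5.37 against 59.6).

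Some values of 0 go against the other libraries of their group. Albumin (Alb) read 2.58, 3.50 and 2.17 FPKM in eWAT and 22791, 27895 and 0 in liver, so that its difference of -7.86 ± 3.41 did not pass (adjusted p = 0.058, but past the test toward liver by the median ratio, adjusted p = 0.0499). With the 0 of liver HP 3 treated as missing it was -12.73 ± 0.18 (adjusted p = 1.5e-09). Cytochrome oxidase subunit 1 (mt-Co1) read 11361, 12596 and 12604 FPKM in eWAT and 45802, 53659 and 0 in liver. Its difference of 3.17 ± 3.64 (adjusted p = 0.43) turned to -2.03 ± 0.22 (adjusted p = 6.2e-05) with that 0 missing. Liver HP 3 held some other hepatocyte and mitochondrial transcripts at the level of its group, such as mt-Co2 at 26809.7, 39999 and 36479 and Ttr at the values above. The major urinary proteins were lowest in it, at a sum of 23130, 16360 and 7770 FPKM in liver HP 1, 2 and 3. An exact 0 of this kind can be a failed estimate. In all, 7 identifiers read 0 in 1 library and at least 10 FPKM in both others of its group, and the rest were Nav1, Gm10197, Gm10337, Gm2399 and Gm17655.

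The tissue difference of prone mice was then set against that of the other groups. Across 15006 genes with 1 FPKM or more in at least 3 of the 18 libraries, 748 (4.98%) differed in their tissue difference between HP and ND by a limma interaction test. For 615 (4.1%) the difference lay more toward eWAT in HP, and for 133 (0.886%) more toward liver. Libraries eWAT ND 1 and eWAT HR 2 carried the most of the testis transcript Tnp1, at 28802 and 2813 FPKM. It read 707 in eWAT ND 3 and 604 in eWAT HP 1, which were kept. Without eWAT ND 1 and eWAT HR 2, 3825 of 13730 genes (27.9%) passed, 2293 toward eWAT (16.7%) and 1532 toward liver (11.2%), and 747 of the 748 were among them. Leaving out 1 HP or ND library at a time gave 401 (without eWAT HP 3) to 1394 genes (without eWAT ND 3). The tissue differences of HP and ND share no library.

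Macrophage genes led the shift toward eWAT. Gpnmb read 2.32, 3.75 and 6.01 FPKM in eWAT ND 1, 2 and 3 and 0.0569, 0.0498 and 0.0674 in liver ND, so that its tissue difference of 9.08 in HP stood beside 2.18 on normal diet. The change of the difference was 6.90 ± 0.78 (adjusted p = 4.1e-04). Mmp12 changed by 6.67, the protease Adam8 by 5.69, Rgs1, a brake on chemokine receptors, by 5.59 and Adgre1 by 5.41. By list, 13 of 23 macrophage markers, 12 of 19 lipid-associated macrophage genes and 12 of 32 lysosomal genes were called toward eWAT and none toward liver. Without the 2 libraries the counts were 17, 16 and 26 toward eWAT, with 2 lipid-associated macrophage genes toward liver.

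The clotting protease F7, made by liver, overlapped between the tissues in prone mice but not on normal diet. It read 0.403, 0.285 and 0.297 FPKM in eWAT ND and 35.1, 42.7 and 37.1 in liver ND, a tissue difference of -4.88, beside 0.53 in HP. The change was 5.42 ± 0.58 (adjusted p = 4.1e-04), and the eWAT HP values given above all lay above those of eWAT ND. The interleukin 1 receptor antagonist Il1rn changed by 5.39, from -2.04 to 3.34. Lysosomal acid lipase (Lipa), which digests lipoprotein cholesterol esters, read 1.82, 36.4 and 31.2 in eWAT ND and 133, 107 and 139 in liver ND, with eWAT ND 1 far below its group. It read 365, 379 and 439 FPKM in eWAT and 91.0, 62.9 and 92.3 in liver in HP.

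Lipa, Il1rn, the cholesterol ester hydrolase Nceh1 and the droplet coat Plin2 belonged to 13 genes, of the 748 past the interaction test, that changed side. The rule was a mean log2 difference of at least 1, toward eWAT in HP and toward liver in ND, with eWAT ND 1 left out. In these 13 the eWAT libraries also lay wholly above liver in HP and wholly below it in ND. These 13 were picked after their values were seen. Nceh1 read 57.4, 64.0 and 76.5 FPKM in eWAT and 13.3, 9.53 and 11.9 in liver in HP, against 0.542, 2.65 and 4.54 in eWAT ND and 20.8, 16.3 and 16.7 in liver ND. Plin2 read 1299, 1038 and 1336 FPKM in eWAT and 619.6, 541 and 597 in liver in HP, against 58.8, 233 and 275 and 987, 535 and 705 on normal diet. The opposite exchange by the same rule on means, liver above in HP and eWAT above in ND, was found for Cidea, Orm3, Crygn and the acyltransferase Mogat1. The libraries of Mogat1 overlapped on normal diet, with eWAT ND 1 below liver ND 2. Cidea read 13.6, 2.92 and 3.82 in eWAT ND and 0.260, 0.113 and 0 in liver ND, against 2.55, 0.878 and 3.81 in eWAT HP and 15.4, 7.66 and 6.11 in liver HP. Mogat1 read 3.95, 38.5 and 30.0 in eWAT ND and 2.56, 8.23 and 3.32 in liver ND, against 4.08, 5.44 and 4.98 and 14.7, 16.1 and 23.5 in HP. Among the 18 genes named here from this comparison, Cidea, Mogat1 and Plin2 missed the threshold in 10, 10 and 8 of the 12 fits that left out 1 library (adjusted p = 0.0594 to 0.118), and the other 15 passed in all 12.

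Of the named genes, adipsin changed most toward liver. Cfd read 3048, 4074 and 3626 FPKM in eWAT ND and 1.78, 3.11 and 0.720 in liver ND, a tissue difference of 10.37. In HP, eWAT was lower and liver higher than in ND in every library, so the difference was 1.36, a change of -9.00 ± 0.83 (adjusted p = 2.8e-04). Cyp2b9, a female-biased cytochrome of liver, changed by -4.86, with liver ND at 0.999, 4.42 and 0.966 against 50.5, 103 and 132 in liver HP. The glutathione transferases Gsta1 (-4.85) and Gsta4 (-4.09), Orm3 (-3.99) and Crygn (-3.58) moved the same way. Adipocyte markers gave 0 calls toward eWAT and 2 toward liver of 30, and 2 and 21 without the 2 libraries. Nuclear genes of the respiratory chain gave 7 toward liver of 76, and 50 without them.

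**Figure D5:**
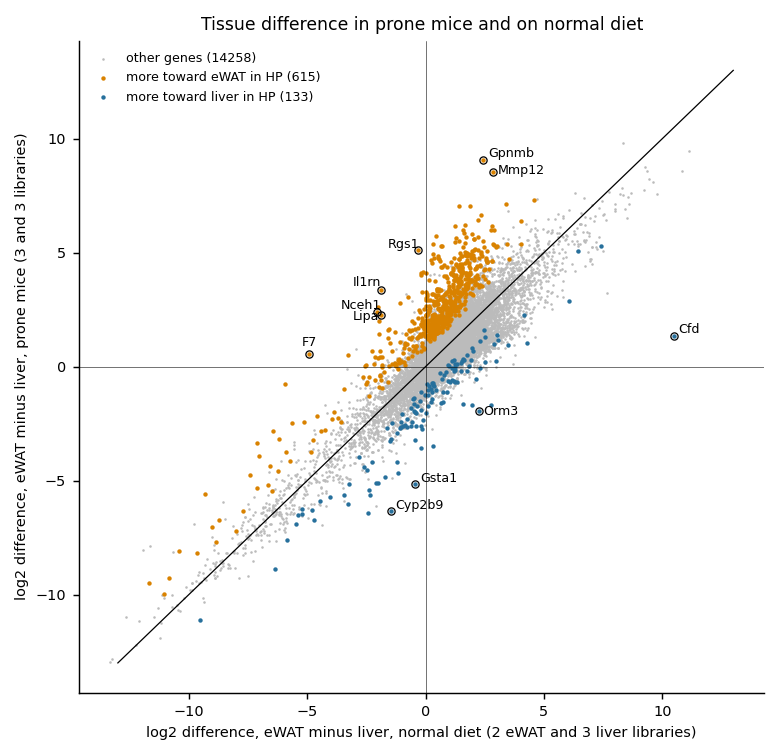
Each point is 1 of 15006 genes, with its log2 difference (eWAT minus liver) on normal diet on the horizontal axis, from eWAT ND 2 and 3 and 3 liver ND libraries, and in prone mice on the vertical axis; the line marks equal differences. Genes past the interaction test over 18 libraries are coloured, 615 more toward eWAT in HP and 133 more toward liver, with Gpnmb and Mmp12 above the line and Cfd below it.

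Against mice labelled resistant, 11 of 15006 genes (0.0733%) passed, 8 toward eWAT (0.0533%) and 3 toward liver (0.02%). Without eWAT ND 1 and eWAT HR 2, 1392 of 13730 (10.1%) passed, 785 toward eWAT (5.72%) and 607 toward liver (4.42%). The count of 11 rested on single libraries: it was 1 to 28 over the 12 fits that each left out 1 HP or HR library. It was 4 without eWAT HP 1, 2 without eWAT HP 2 or 3, 26 without eWAT HR 3, 28 without liver HP 1 and 1 without eWAT HR 1 or any of liver HP 2, liver HP 3 and the 3 liver HR libraries. Of the 9 genes named here Hsd3b5 passed in all 12, and the others missed the threshold in 6 (Agt) to 11 (Zranb3) of them, at adjusted p = 0.0548 to 0.188. Agt also missed it under quantile normalization and with equal sums, and the other 7 with a pseudocount of 0.1 and with the replicate block (adjusted p = 0.0522 to 0.704 over these settings). Hsd3b5, a male-biased steroid enzyme of liver, read 82.0, 54.6 and 56.1 FPKM in liver HR and 2.58, 0.185 and 0.124 in liver HP, and was listed at 0 in eWAT of both. The liver groups did not overlap, and the change of the tissue difference was 5.25 ± 0.50 (adjusted p = 6.6e-04). Zranb3, a DNA repair helicase, changed by 2.86, with 53.6, 48.3 and 84.8 in eWAT HP and 8.05, 9.06 and 10.6 in eWAT HR. Thymidine kinase 1 (Tk1), a marker of dividing cells, changed by 2.38, the serotonin receptor Htr2b by 2.29, the aspartate carrier Slc25a13 by 2.23 and Dlg3 by 2.09. Angiotensinogen (Agt), the precursor of angiotensin, changed by -2.48 ± 0.32 (adjusted p = 0.015) toward liver. Its eWAT values were 15.4, 14.7 and 8.31 in HP and 72.1, 75.9 and 59.7 in HR, while liver read 306, 373 and 333 and 338, 273 and 333. Gstm3 (-2.48) and Ifi27l2b (-2.38) also changed toward liver, with higher values in every liver HP library than in any liver HR library.

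Over all genes, r between the tissue differences of HP and ND was 0.779 (0.887 without eWAT ND 1), and between HP and HR 0.922 (0.951 without eWAT HR 2), across genes and with no p. Taking genes by a log2 difference of at least 3 alone, over these 15006, 80.7% of those higher in liver in HP were also so in ND and 89% in HR. Of those higher in eWAT in HP, 37.2% were so in ND (51.2% without eWAT ND 1) and 63.8% in HR (76.1% without eWAT HR 2). As shares of the other list, the overlaps for liver were 83.5% of ND and 88.7% of HR. For eWAT they were 32% of ND, or 62% without eWAT ND 1, and 69.4% of HR, or 76.2% without eWAT HR 2.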

How the data were processed

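RNA of eWAT and liver was extracted with TRIZOL and sequenced from TruSeq libraries, per the labels' protocols. The submitters' processing notes name CASAVA 1.8.2, STAR 2.4.0 and Cufflinks 2.1.1; no source used here gives the genome build or annotation. The deposited table gives FPKM per gene and library, as the authors computed it; FPKM corrects for length and library total but keeps no counts, and each library's abundant genes weigh on all its other values. Of 23474 identifiers, 22671 were named through the reference table and 803 were not. No column of values lacked a sample (0).

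From these values, log2(FPKM + 1) was tested with limma 3.58.1 (R 4.3.3) with a variance trend, two-sided, with Benjamini-Hochberg adjustment: eWAT HP against liver HP over 6 libraries, and the HP minus ND and HP minus HR tissue differences over 18. The pseudocount of 1 FPKM understates differences of low genes. The tests were tried on simulated data first. Depth is unknown, so the precision of low values is too. Genes named are up to 15 of each side by log2 difference (5 FPKM or more on average where higher, groups apart, no predicted, clone or Riken name), list members with the largest differences or a role the list needs, all tested members of a family described, and up to 8 of each sign for interactions. Members and lists were chosen with earlier results of these data known, and lists were written from general knowledge. Alternatives were another pseudocount, no filter, 3 other scales, a fit of 18 libraries, no variance trend, a replicate block, isolated zeros as missing, and leaving out each library. Some genes that these rules name are not reported here. Family members not tested were below the filter or not matched and are not reported.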

Additional observations from a re-analysis of the deposited data

Results flagged for a closer look

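Each gene here had a tissue difference (eWAT minus liver, log2) in prone mice that differed from that of another group by the limma interaction test over 18 libraries. Against normal diet, the difference lay further toward eWAT for Gpnmb (6.90), Mmp12 (6.67), Adam8 (5.69), Rgs1 (5.59), F7 (5.42), Adgre1 (5.41), Il1rn (5.39), Lipa (5.34), Nceh1 (5.00) and Plin2 (3.26). It lay further toward liver for Cfd (-9.00), Cyp2b9 (-4.86), Gsta1 (-4.85), Cidea (-4.20), Gsta4 (-4.09), Orm3 (-3.99), Crygn (-3.58) and Mogat1 (-3.50). Against resistant mice, it lay further toward eWAT for Hsd3b5 (5.25), Zranb3 (2.86), Tk1 (2.38), Htr2b (2.29), Slc25a13 (2.23) and Dlg3 (2.09), and further toward liver for Gstm3 (-2.48), Agt (-2.48) and Ifi27l2b (-2.38). For Hsd3b5, Gstm3 and Ifi27l2b the eWAT values of HP and HR were all under 1 FPKM, and the HP and HR values of liver did not overlap. For Gpnmb and F7 every eWAT HP value stood above every eWAT ND value. No group was large enough for a search for single libraries that stand apart.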

How the results depend on the processing

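Depth is unknown, which limits what low values can show, and abundant liver genes weigh on the FPKM of all others. Of 216 single genes tested between eWAT HP and liver HP, 174 kept their direction and their side of the threshold under every alternative run. The 10827 calls were 9702 to 12044 under the other scales, pseudocount and filter and 8031 in the fit of 18 libraries. Genes higher in eWAT numbered 5205 and in liver 4497 under quantile normalization, and in liver 4102 by the median ratio and 1492 with equal sums. Genes at least 3 higher in eWAT numbered 2348 with a pseudocount of 0.1, 608 under quantile normalization and 681 by the median ratio. Those at least 3 higher in liver numbered 716, 713 and 740 under the same settings. Of the calls, 79.1% lay toward eWAT as deposited, 53.6% under quantile normalization, 59% by the median ratio and 87.2% with equal sums.

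Without 1 HP library, the counts were 10500 to 10627 in all, 8312 to 8430 higher in eWAT, 2070 to 2296 higher in liver, 1093 to 1157 at least 3 higher in eWAT and 549 to 577 at least 3 higher in liver. The difference of HP against ND gave 3825 genes without eWAT ND 1 and eWAT HR 2, 438 with a pseudocount of 0.1 and 401 to 1394 without 1 library. It was 1394 without eWAT ND 3, 459, 491 and 401 without eWAT HP 1, 2 and 3, 455 and 435 without liver ND 1 and 3, and 427 and 485 without liver HP 2 and 3. HP against HR gave 1392 genes without those 2 libraries, 2 with a pseudocount of 0.1, 36 with no filter, 5 under quantile normalization, 6 with equal sums and 1 to 28 without 1 library. The cause was not tested.

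With the replicate block the counts were 10574 between tissues, 629 for HP against ND and 2 for HP against HR. The deviations of same-numbered eWAT and liver HP libraries correlated at -0.0897, -0.214 and 0.0384, no eWAT library correlated best with its own number, and the labels do not pair them.

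Directions turned by the median ratio for Atp5b (-0.38), Car3 (-0.73), Cebpa (-0.59), F7 (-0.28), Fabp7 (-0.28), Glul (-0.79), Hp (-0.28), Ldha (-0.80), Slc27a4 (-0.35) and Slc2a5 (-0.20). They turned under quantile normalization for Fabp7 (-0.71), Klb (-0.35), Slc27a4 (-0.47), Slc2a5 (-0.56) and Slc2a8 (-0.21), and with equal sums for Cxcl12 (0.16), Gpd1 (0.10), Grb14 (0.044), Insr (0.55), Pdk1 (0.33) and Spp1 (0.57). With a pseudocount of 0.1 the direction turned for Slc2a5 (-0.11), and with isolated zeros missing for mt-Co1 (-2.03). In the fit of all 18 libraries, 25 genes no longer passed between tissues (adjusted p = 0.0521 to 0.538), namely Atp5b, C3, Cfb, Cfd, Cidea, Cpt1a, Cxcl12, Fabp3, Gapdh, Gpd1, Grb14, Hp, Klb, Mat2b, Ndufs1, Pck1, Pdk1, Pdk2, Plin2, Pparg, Pros1, Scd1, Slc27a4, Slc2a3 and Tnp1. Without the filter this held for Atp5b (adjusted p = 0.0969), Cfd (adjusted p = 0.0521), Fabp3 (adjusted p = 0.0907) and Hp (adjusted p = 0.158). With the replicate block it held for Atp5b (adjusted p = 0.0509), Hp (adjusted p = 0.0512) and Pdk1 (adjusted p = 0.0702), and with no variance trend for Pdk1 (adjusted p = 0.052). For HP against ND, Cidea, Mogat1, Mmp12 and Plin2 missed the threshold under some other settings (adjusted p = 0.0503 to 0.111). Over the fits without 1 library the difference lay on both sides of 0 for Glul (-0.082 to 0.26, turned without eWAT HP 3 or liver HP 2 or liver HP 3), Insr (-0.20 to 0.016, turned without eWAT HP 1), Ldha (-0.048 to 0.19, turned without eWAT HP 1 or liver HP 2 or liver HP 3), Slc2a5 (-0.84 to 1.19, turned without eWAT HP 1), Spp1 (-0.37 to 0.20, turned without eWAT HP 2 or liver HP 3) and mt-Co1 (-2.03 to 5.83, turned without liver HP 3).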
